A study of Mus musculus with 12 samples.

Results

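Kidneys collected 21 days after diphtheria toxin were compared, gene by gene, with kidneys collected 14 days after it, to describe which changes of day 14 had receded, which persisted and which appeared only late. The comparison used 6 of the 12 libraries of a time course in Pod-TRECK mice, the 3 taken at day 14 and the 3 taken at day 21, and covered all 19821 genes with enough counts among 56722 in the deposited table. In Pod-TRECK mice the toxin's receptor is made by podocytes, which wrap the glomerular capillaries and form the filtration slits, so the toxin strikes that cell type. Every mouse of the series carried this genotype. The day-14 and day-21 mice had received 100 ng of toxin into the peritoneum, and the 3 control mice had received none. RNA came from whole kidney and was selected by poly(A). The sources used here give no strain, age, sex or promoter of the receptor, and name no group given toxin without the receptor. The 6 libraries held between 31023852 and 39493106 counts.

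When podocytes are lost, plasma proteins reach the tubule and the epithelium downstream is injured. An injured proximal tubule cell turns off its transporters and turns on surface and signalling genes such as Havcr1 and Vcam1. It also secretes chemokines through NF-kB, a family of transcription factors released by inflammatory signals, and these draw in monocytes. Some such cells later regain their transport genes, while others are known to stay in an inflammatory state.

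The 3 day-21 libraries were not alike, and this touches every result. On the first principal component, which held 66.2% of the variance, the second day-21 library had a score of -36.8, while the other day-21 libraries lay at 73.0 and 80.1 and the day-14 libraries between 90.9 and 94.6. In that library the podocyte gene Nphs1, which encodes the slit protein nephrin, stood at 16.5 CPM (counts scaled to library size after TMM correction, which allows for a few genes taking many counts), beside a control mean of 22.2 ± 2.3 (SD, n = 3, as for every control mean below). In the other 2 day-21 libraries Nphs1 stood at 0.412 and 0.517 CPM, within the day-14 range of 0.268 to 0.614. In the day-5 libraries, too, it stood at 1.19 to 1.99 CPM, so the library labelled day-21 replicate 2 does not show the low Nphs1 of the 8 other libraries given toxin, although its Havcr1, an injury marker, stood at 129.9 CPM against 2.59 ± 0.657 in controls. The labels give no reason. Whether this kidney had recovered or had been less affected from the start cannot be told apart, and every value over the 3 day-21 libraries carries that doubt. Day-21 replicate 1 stood apart in another way: the ribosomal RNA entry Rn18s reached 26773 CPM there against 1374 to 2127 in the other 5 libraries. Markers of neighbouring tissue also varied. The fat cell gene Adipoq stood at 49.5, 50.3 and 2.8 CPM at day 14 and at 0.315, 1.35 and 30.6 at day 21, and the haemoglobin gene Hbb-bs at 2.62, 2.33 and 26.2 and at 123, 211 and 3.55. Neither followed the groups, and neither gene is counted among the changes below. In both genes day-14 replicates 1 and 2 were alike and replicate 3 was not. The Spearman correlation of day-14 replicates 1 and 2 over all genes tested was 0.996. With day-14 replicate 3 it was 0.989 and 0.992, and between day-21 libraries 0.951 to 0.986. Why these 2 were so alike was not tested. If they were not independent kidneys, the adjusted p values below may be too low. Each main count is also given without day-21 replicate 2. A gene given below with a log2 fold change (± SE) and an adjusted p, both from edgeR, kept its call with any 1 of the 6 libraries left out unless that is stated. Each SE and adjusted p rests on a spread shared by all 12 libraries. In a fit of only the 6 libraries compared, 123 of 269 genes named by rule or in the text lost their call. Below, that limit is mostly given by list and not by gene.

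In the fit of all 12 libraries, 1393 genes were higher and 1500 were lower at day 21 than at day 14 (edgeR quasi-likelihood test, Benjamini-Hochberg adjusted p under 0.05), which is 7.03% and 7.57% of the genes tested, or 14.6% in all. Of the genes called higher, 1350 had all 3 day-21 libraries above all 3 day-14 libraries, and of those called lower 1495 had all 3 below, against 14.8% and 17.7% of all genes tested. Changes of at least 2-fold were fewer, with 379 genes higher and 525 lower. Without day-21 replicate 2 the counts rose to 2585 higher and 2366 lower (12.5% and 11.4%), and 1261 and 1442 of the genes called with it were among them. Other choices moved these counts too. Leaving out a day-14 library gave 289 to 457 higher and 563 to 759 lower, leaving out day-21 replicate 1 gave 2619 and 2255, and leaving out day-21 replicate 3 gave 2159 and 1535. A fit of only the 6 libraries gave 56 higher and 207 lower (0.293% and 1.08%, or 1.37% in all). Scaling to library totals alone moved the median of all genes by -0.25 on the log2 scale and turned the split into 512 higher and 2724 lower, so every direction below is relative to TMM-scaled library sizes. In whole tissue, fewer cells of a type and less RNA per cell cannot be told apart. List counts below are to be read against 7.03% of all genes higher and 7.57% lower. Without day-21 replicate 2 these shares were 12.5% and 11.4%.

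**Figure D1:**
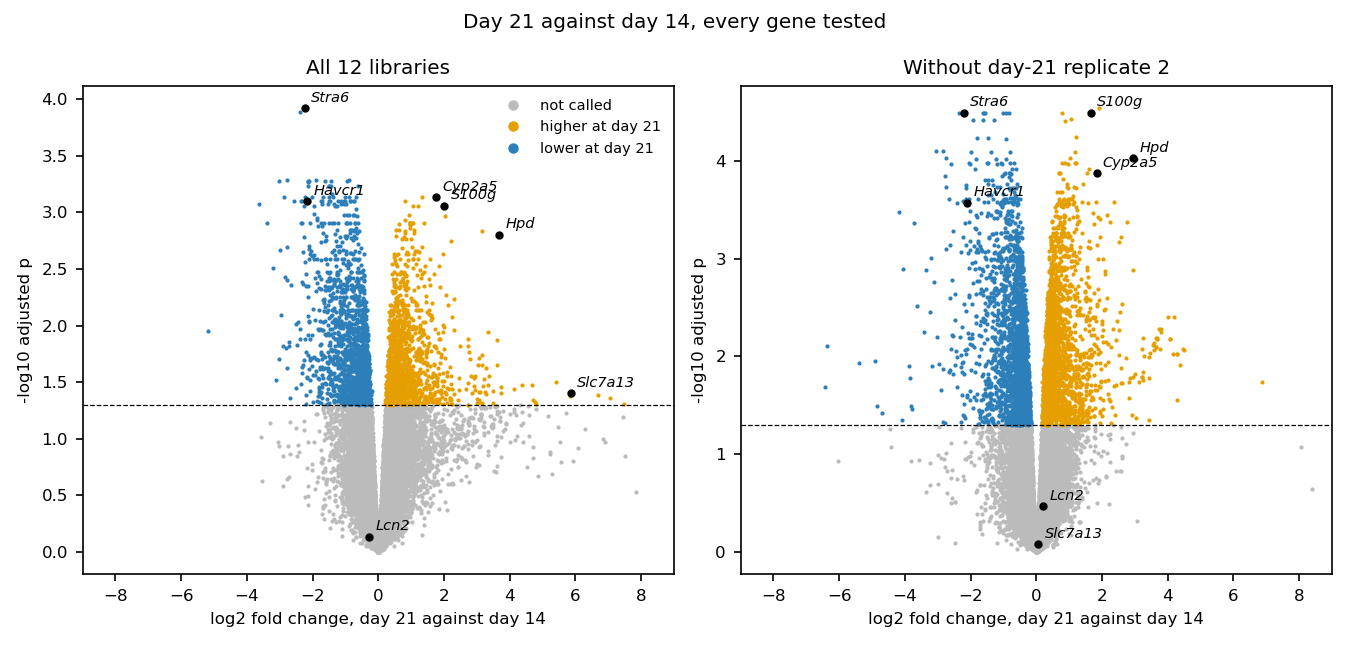
Log2 fold change of day 21 against day 14 (horizontal axis) and -log10 adjusted p (vertical axis) for each gene tested with all 12 libraries, with all of them in the fit (left) and without day-21 replicate 2 (right). Havcr1 and Stra6 are lower in both panels, while Slc7a13 has a log2 fold change of 5.87 on the left and 0.06 on the right.

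How far each day-21 library had returned to control was measured on 6219 genes chosen from control and day-14 libraries alone, 3516 raised and 2703 lowered at least 2-fold at day 14. A return of 100% is the control mean and 0% the day-14 mean, as a position between them, since no kidney was sampled at both days. The median return was 15.5% in day-21 replicate 1, 72.1% in replicate 2 and 15.2% in replicate 3. For replicate 2 this position need not be a return, given its Nphs1 level. For scale, the day-5 libraries, taken before the day-14 state, lay at 74.8%, 72.2% and 70.8% on the same axis. Replicates 1 and 3 thus stood close to day 14 for most genes, and 27.2% and 31% of the genes in them lay beyond the day-14 mean, farther from control.

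The direction of each gene against control at day 14 sorted the changes. At day 14, 31.2% of genes were above control and 28.8% below, and at day 21 24.3% and 18.5%. A group of 1372 genes had risen by day 14 and were lower again at day 21, called receding rises here, and 1240 had fallen and were higher again, called recovering falls. Another 2108 had risen at day 14, were still above control at day 21 and had a 95% interval for day 21 against day 14 within 1 log2 unit either way, and 2036 had fallen and stayed down by the same rule. These persistent classes share 210 and 230 genes with the receding and recovering classes, which changed but by little. Genes higher at day 21 than at both day 14 and control, without a called rise at day 14, numbered 78, and the matching late falls 75. Only 12 genes had risen by day 14 and rose further, and 3 had fallen and fell further. Without day-21 replicate 2 the classes held 1624 receding and 1414 recovering genes, 3774 and 4209 persistent, and 607 late rises and 348 late falls. The largest of those late rises by log2 fold change included 7SK and Rn18s, the ribosomal RNA entry that was high in day-21 replicate 1. Leaving out a day-14 library took the late rises to between 21 and 29 and the late falls to between 17 and 35. The receding, recovering and late classes are chosen with the comparison itself, so their levels by library are a description.

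**Figure D2:**
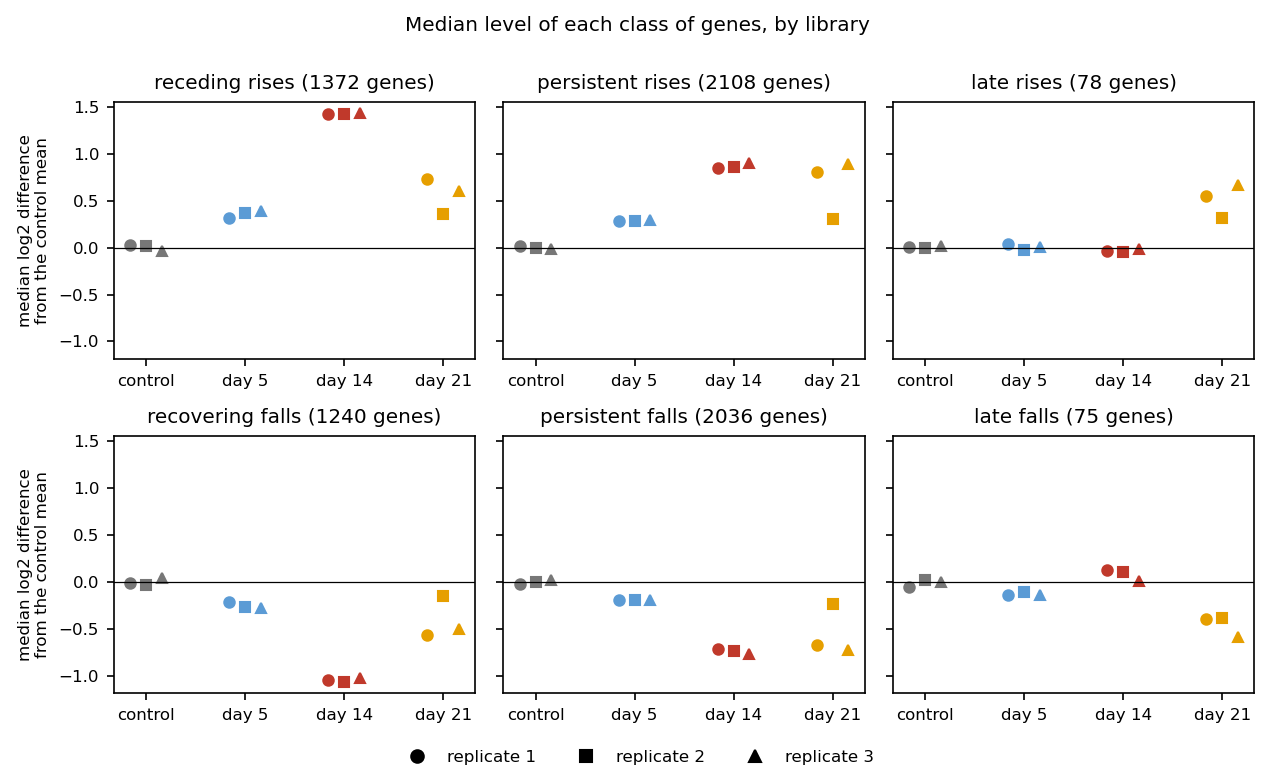
Median log2 difference from the control mean (vertical axis) over the genes of each class, in each library (horizontal axis, by group). Receding rises stood at 0.74, 0.37 and 0.60 in the 3 day-21 libraries against 1.43 to 1.44 at day 14, while persistent rises stood at 0.81, 0.30 and 0.89 against 0.85 to 0.90.

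The genes that receded included most of those that mark a persistent injury state of the proximal tubule, the inflammatory state in which injured tubule cells are known to linger. Of the 19 listed members, 15 were lower at day 21 and none higher, against a background of 7.57% lower, with a median log2 fold change of -1.30 beside 0.03 over all genes. Havcr1, the surface receptor also known as KIM-1 and a standard marker of tubule injury (chr11:46625907-46670405 in GRCm39), stood at 614, 618 and 672 CPM at day 14 and at 159.9, 129.9 and 134 at day 21, against 2.59 ± 0.657 in controls (SD, n = 3). All 3 day-21 libraries, replicate 2 included, lay together below day 14 and far above control, and the log2 fold change was -2.17 ± 0.23 (adjusted p = 0.00079). Vcam1, an adhesion protein that binds leukocytes (chr3:115903598-115923337), went from 849, 859.6 and 750.3 to 153, 89.7 and 241 CPM, a log2 fold change of -2.35 ± 0.29 (adjusted p = 0.00124). Dock10, an activator of small GTPases, went from 68.9, 67.6 and 63.3 to 16.4, 10.7 and 18.4 CPM, again without overlap (-2.13 ± 0.2, adjusted p = 0.000535). The growth factor gene Pdgfb, whose product acts on pericytes and fibroblasts, went from 79.1, 80.5 and 89.5 to 30.9, 21.1 and 36.6 CPM, and Sema5a, an axon guidance gene, from 107, 104 and 104 to 60.5, 47.3 and 49.6, where its control mean was 50.3 ± 3.98. Day 21 against control was not called for Sema5a, the growth factor gene Pdgfd and the deacetylase gene Hdac9 (log2 fold changes of 0.06 ± 0.11, 0.09 ± 0.1 and -0.13 ± 0.25). The count of members lower was 16 without day-21 replicate 2, 12 to 16 with any 1 library of either day left out, and 10 in the fit of only the 6 libraries.

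NF-kB subunits and the genes that the pathway turns on to limit itself were lower too. Of 18 members, 13 were lower at day 21 and none higher, with a median log2 fold change of -1.04. Among subunits, Nfkb1 stood at 81.9, 77.7 and 78.1 CPM at day 14 and 44, 32 and 45.6 at day 21 (-0.97 ± 0.11, adjusted p = 0.00106), Nfkb2 at 73.1, 71.5 and 73.7 and 28.7, 22.2 and 39.6 (-1.27 ± 0.16, adjusted p = 0.00144) and Rel at 6.64, 7.61 and 6.36 and 4.38, 2.95 and 3.08 (-0.98 ± 0.17, adjusted p = 0.00561). Each was lowest in replicate 2, and none overlapped between the days. Tnfaip3, which encodes the ubiquitin-editing brake A20, went from 47.1, 46.6 and 43.8 to 14.1, 7.54 and 17.2 CPM (-1.82 ± 0.23, adjusted p = 0.00132), and the adaptor gene Traf1 from 15.5, 14.9 and 18.2 to 3.87, 2.95 and 5.05 (-2.03 ± 0.2, adjusted p = 0.000731). Traf1 and Tnfaip3 were still above control, with log2 fold changes of 1.5 ± 0.21 and 1.58 ± 0.24. Nfkbia, the inhibitor that holds NF-kB in the cytoplasm, was not called: its values were 76.6, 82.5 and 86.4 CPM at day 14 and 51.1, 29.9 and 85.1 at day 21 (adjusted p = 0.199). The count of members lower was 13 without day-21 replicate 2, 11 to 14 with 1 library left out, and 4 in the fit of only the 6 libraries.

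The DNA before the start sites of these genes was searched on both strands for the kappa-B consensus, the site that NF-kB dimers bind. The search used RefSeq promoter windows of 300 bases (250 before the gene start and 50 after it). These windows were on GRCm38.p6, a build other than that of the counts. Windows were found for 13 of the 18 genes, and 8 of these genes held at least 1 match, against 9.55% of the 27025 genes with a window. For chemokines and interleukins 8 of 24 genes held one. A match is a description of the letters and not a measured binding site. The NF-kB list was made of subunits and genes that the pathway turns on, so its share of matches follows in part from that choice. Whether NF-kB caused the falls was not tested. Stretches around a match from genes that were lower at day 21 are printed here, read 5′ to 3′ on the gene's strand with the match in capitals. The Rel stretch lies at chr11:23771027-23771086, with its match starting 92 bases before the gene start, the Tnfaip3 stretch at chr10:19015501-19015560 (125 bases before), the Nfkbie stretch at chr17:45555569-45555628 (106 bases before), the Cxcl2 stretch at chr5:90903777-90903836 (97 bases before) and the Cxcl10 stretch at chr5:92348959-92349018 (104 bases before).
Rel: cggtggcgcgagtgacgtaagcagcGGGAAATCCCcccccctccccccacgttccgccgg
Tnfaip3: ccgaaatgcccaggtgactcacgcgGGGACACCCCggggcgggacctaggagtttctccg
Nfkbie: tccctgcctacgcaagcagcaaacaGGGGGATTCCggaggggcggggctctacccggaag
Cxcl2: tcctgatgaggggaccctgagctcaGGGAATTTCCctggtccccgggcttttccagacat
Cxcl10: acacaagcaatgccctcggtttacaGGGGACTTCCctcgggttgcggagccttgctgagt

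Chemokine genes were lower in part. Of the 30 chemokine and interleukin genes tested, 13 were lower and none higher, against 7.57% of all genes tested called lower. In 19 of the 30, all 3 day-21 libraries lay below all 3 of day 14, against 17.7% of all genes tested. Ccl2, the main attractant of CCR2-bearing monocytes (chr11:81926397-81928279), stood at 34, 35.6 and 54.5 CPM at day 14 and 7.29, 6.07 and 11.3 at day 21, against 0.322 ± 0.0297 in controls, a log2 fold change of -2.33 ± 0.25 (adjusted p = 0.00079). Its neighbours Ccl7 and Ccl12, which act on the same receptor, went from 5.07, 4.74 and 5.62 to 0.581, 0.546 and 1.08 and from 5.03, 4.2 and 4.89 to 1.09, 0.995 and 1.6 CPM. These genes belong to a family of similar sequence, and how reads matching several genes were counted is not given, so the split between them is uncertain. Cxcl2, which draws neutrophils, went from 9.57, 8.76 and 10.8 to 2.88, 1.35 and 4.3 CPM (-1.76 ± 0.35, adjusted p = 0.0107). Cxcl10 and Ccl5, which draw T cells, had another order of the libraries: Cxcl10 stood at 5.93, 9.41 and 6.91 CPM at day 21 and Ccl5 at 1.74, 2.12 and 1.74, so day-21 replicate 2 held the highest value of both, although all 3 libraries lay below the day-14 values of 19.9, 21.4 and 20.4 and 6.27, 5.55 and 6.99. Ccl20, an attractant of lymphocytes and dendritic cells, was not called (7.6, 6.41 and 7.77 CPM, then 2.62, 1.22 and 7.64). The count lower was 16 without day-21 replicate 2, where 1 member was higher, 10 to 16 with 1 library left out, and 8 in the fit of only the 6 libraries.

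Some macrophage and dendritic cell genes were lower as well. Of 25 macrophage and monocyte genes, 11 were lower and none higher, with 9 to 15 lower when 1 library was left out and 4 in the fit of only the 6 libraries. Without day-21 replicate 2 there were 14 lower and 2 higher. The summed level of the list went from between 2190 and 2295 CPM at day 14 to 1307, 664 and 1087 at day 21, against 255 to 308 in controls. Ccr2, the receptor for Ccl2 (chr9:123901987-123913594), stood at 91.4, 85.5 and 78.4 CPM at day 14 and 23.8, 17.3 and 18.4 at day 21 (-2.1 ± 0.19, adjusted p = 0.000527). Adgre1, which encodes the macrophage marker F4/80, went from 30.0, 28.4 and 30.3 to 11.2, 11.3 and 10.1 CPM (-1.45 ± 0.13, adjusted p = 0.000527). The 3 day-21 libraries of Adgre1 lay close together and above the control mean of 3.21 ± 0.672. Csf1r, the receptor that keeps macrophages alive, had come down to 51.2, 44.3 and 41.3 CPM from 81.1, 76.5 and 82.7, beside 48.6 ± 5.33 in controls, so that day 21 against control was not called (-0.09 ± 0.1, adjusted p = 0.479). Lyz2, the macrophage lysozyme, stood at 446, 427 and 439 and then 235, 112 and 188 CPM and remained above control by 3.67 ± 0.26. Not all macrophage genes moved this way. Trem2, a lipid receptor of macrophages in injured tissue, stood at 5.62, 0.738 and 5.22 CPM at day 21 beside 4.8, 5.06 and 5.58 at day 14, and was not called (adjusted p = 0.64). Arg1 and Chil3, which mark alternative activation, stood at 2.13, 0.0642 and 1.97 and at 3.71, 0.0321 and 4.09 CPM after 0.27, 0.319 and 0.195 and 0.559, 0.712 and 0.779. Both were thus higher than at day 14 in replicates 1 and 3 and low in replicate 2, and both were called higher without that replicate (2.96 ± 0.45 and 2.51 ± 0.34, adjusted p = 0.00131 and 0.000681) but not with it (adjusted p = 0.0817 and 0.154).

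Among 10 dendritic cell genes 6 were lower, and the order of the libraries was not that of the macrophage genes. Cd209a, a lectin of monocyte-derived dendritic cells, stood at 6.96, 7.24 and 9.08 CPM at day 14 and 1.38, 2.02 and 1.18 at day 21, with the highest value in replicate 2 (-2.35 ± 0.26, adjusted p = 0.00079). Measured on the 6 members changed at least 2-fold at day 14, the median return toward control was 59.6%, 43.0% and 76.5% in the 3 day-21 libraries, while for macrophage genes it was 16.3%, 56.2% and 22.0%. Cd83, a protein of activated dendritic and B cells, went from 16.5, 15.4 and 14.2 to 3.2, 2.79 and 2.82 CPM (-2.39 ± 0.16, adjusted p = 0.000131), and Ear2, an eosinophil-type ribonuclease of macrophages and eosinophils, from 12.5, 13.8 and 16.4 to 1.94, 2.44 and 1.48 (-2.87 ± 0.3, adjusted p = 0.000731). Ear2 has near-identical relatives, so its count is uncertain. The count of list members lower was 2 to 6 with 1 library left out and 1 in the fit of only the 6 libraries.

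Genes of antigen presentation were lower as well. Of 12 genes of MHC class II presentation 7 were lower, and of 29 genes of MHC class I and the interferon response 20 were lower, with none higher in either list. Ciita, the master switch of class II genes, went from 28.4, 29.6 and 30.7 to 14.4, 8.7 and 10.3 CPM (-1.41 ± 0.2, adjusted p = 0.00225), and Nlrc5, the corresponding switch of class I genes, from 11, 10.7 and 11.5 to 5.81, 5.65 and 4.61 (-1.05 ± 0.15, adjusted p = 0.00259). H2-Aa, a class II chain, stood at 356, 383 and 414 and then 232, 116 and 175 CPM, and the class I partner B2m at 613, 656 and 703 and then 409, 323 and 424. Neither overlapped between days, and both remained above control, by 2.04 ± 0.22 and 1.05 ± 0.13. Mx1, an antiviral gene induced by type I interferon, went from 3.14, 2.6 and 2.7 to 0.993, 0.417 and 0.611 CPM, against a control mean of 0.312 ± 0.0236, and remained above control by 1.12 ± 0.32. Many of these calls were fragile. The class II count ran from 5 to 9 with 1 library left out and was 1 in the fit of only the 6 libraries. For class I and interferon genes, with a day-14 library left out the count fell as low as 6, and in the fit of only the 6 libraries 2 remained past the threshold, while without day-21 replicate 2 the count was 21.

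Complement genes were lower too. Of 18 tested, 11 were lower and none higher, 4 to 12 with 1 library left out and 1 in the fit of only the 6 libraries. The proteases of the classical pathway C1ra and C1s1 went from 66.6, 69.9 and 75.2 to 41.1, 25.7 and 34.5 and from 88.2, 82.2 and 88 to 47.7, 33.1 and 32.3 CPM (-1.06 ± 0.16 and -1.19 ± 0.17, adjusted p = 0.0028 and 0.00219). C3, the central component, stood at 3507, 3364 and 2903 CPM at day 14 and at 1142, 243 and 1426 at day 21, against 18.6 ± 3.74 in controls. It was lower at day 21 (-1.8 ± 0.49, adjusted p = 0.0348), but was not called with a day-14 library left out (highest adjusted p = 0.0964). With all 3 day-14 libraries but without day-21 replicate 2 the log2 fold change was -1.34 ± 0.21 (adjusted p = 0.00158). T and NK cell genes showed 1 of 17 members lower (Cd3d, a chain of the T cell receptor complex, 0.887, 0.712 and 1.19 CPM and then 0.291, 0.385 and 0.329), and this call was lost when any 1 day-14 library was left out. That share was near the 7.57% of all genes called lower. The list's median log2 fold change was -0.82, and library totals as the only scaling gave 8 of 17 lower.

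**Figure D3:**
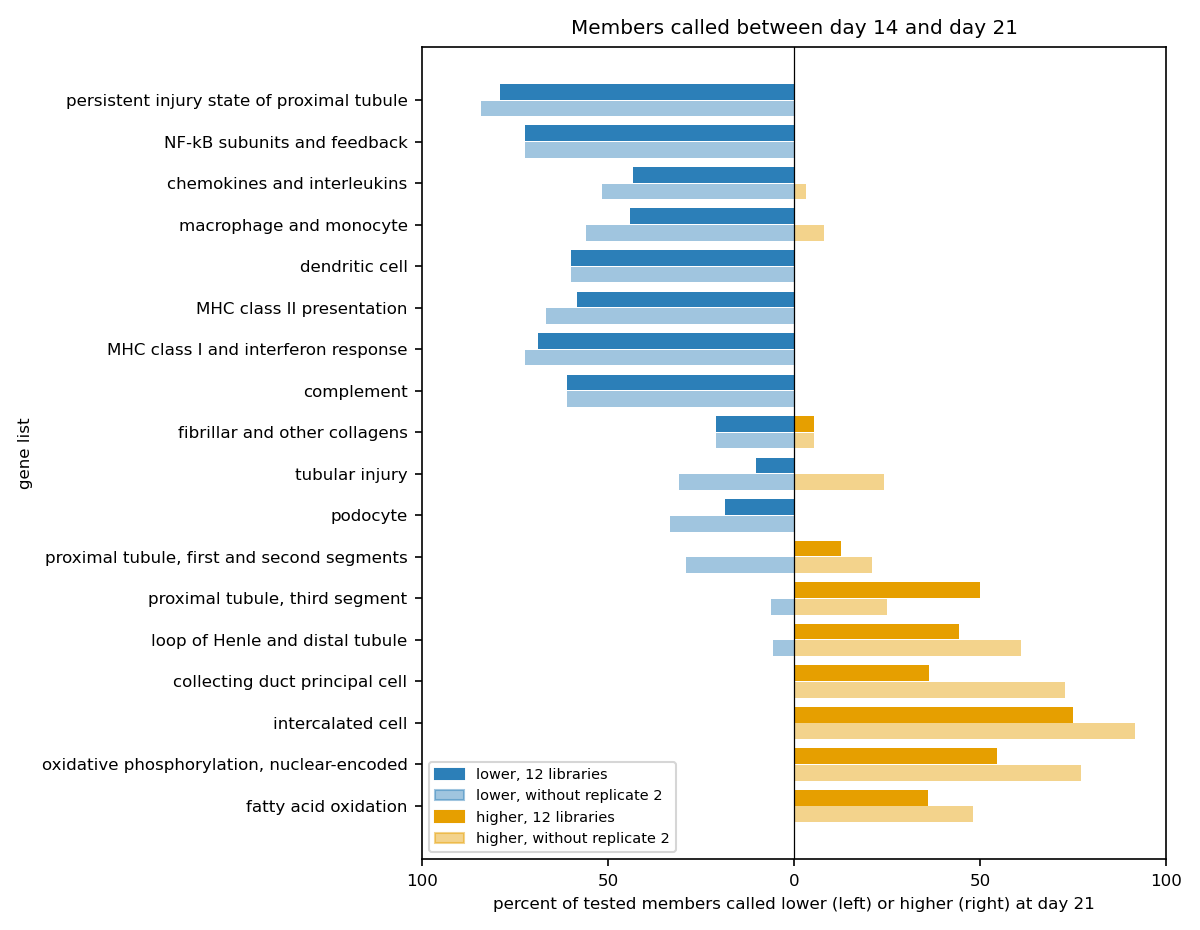
Percent of tested members of each gene list called lower (left of 0) or higher (right of 0) at day 21 than at day 14, with all 12 libraries (full colour) and without day-21 replicate 2 (pale). Among the lists drawn, the 8 from the top have no member higher with all libraries, and without replicate 2 the chemokine list has 1 higher and the macrophage list 2. The earlier segments of the proximal tubule have 3 members higher in one and 5 higher and 7 lower in the other. Over all genes, 7.03% were higher and 7.57% lower with all libraries, and 12.5% and 11.4% without replicate 2.

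Matrix genes receded less clearly. Of 19 collagen genes 4 were lower and 1 was higher, and of 29 other matrix genes 4 were lower. Over all genes tested 7.57% were lower and 7.03% higher. Col1a1, the main collagen of scar tissue, stood at 194, 192 and 229.5 CPM at day 14 and 168, 38.8 and 117 at day 21, and Col3a1 at 389.6, 366 and 364 and 321, 137 and 187. All 3 day-21 values lay below those of day 14 for both genes, yet neither passed the test (adjusted p = 0.164 and 0.0925), and both remained above control (2.88 ± 0.47 and 2.64 ± 0.31). Fn1, fibronectin, went from 313, 292 and 289 to 194, 57.8 and 92.2 CPM (-1.38 ± 0.38, adjusted p = 0.0374) and lost the call with any 1 day-14 library left out and without day-21 replicate 3 (highest adjusted p = 0.101). Acta2, the smooth muscle actin of myofibroblasts, stood at 105, 109 and 113 and then 117, 18 and 104 CPM, with replicate 2 alone low, and was not called (adjusted p = 0.557). Mmp12, the elastase of macrophages, was among the called falls (21.1, 21.3 and 22.9 CPM, then 11.2, 3.4 and 6.49, adjusted p = 0.0118). Col4a4, a chain of the mature glomerular basement membrane, was the collagen that rose, from 75, 71.6 and 81 to 107, 154 and 94.4 CPM (0.64 ± 0.16, adjusted p = 0.0229), and lost that call with any 1 day-14 library left out. With 1 library left out the number of collagens lower ran from 0 to 15 and that of other matrix genes from 1 to 14, and in the fit of only the 6 libraries none of either was called.

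Most intercalated cell genes rose toward control. Intercalated cells, which secrete acid or base in the collecting duct, had 9 of 12 listed genes higher and none lower, against a background of 7.03% higher. Atp6v0d2, a subunit of their proton pump (chr4:19876841-19922605), stood at 25.5, 24.5 and 25.6 CPM at day 14 and 57.4, 40.2 and 48.2 at day 21, against 39.7 ± 1.27 in controls (0.95 ± 0.11, adjusted p = 0.00106). Insrr, an alkali sensor of base-secreting cells, went from 4.05, 3.93 and 4.38 to 7.46, 11.6 and 7.0 CPM and stayed below its control mean of 21.7 ± 2.32. Aqp6, a channel of acid-secreting cells, went from 15.4, 16.8 and 15.4 to 28.1, 47.2 and 26.3 CPM, and the ammonia transporter Rhbg from 13.3, 13.2 and 18.5 to 23.3, 29.5 and 30.8 (1.09 ± 0.19 and 0.9 ± 0.16, adjusted p = 0.00605 and 0.00659). Foxi1, the factor that specifies these cells, was not called (16.5, 15.9 and 20.4 CPM, then 30.2, 16.8 and 26.6, adjusted p = 0.184). The count higher was 11 without day-21 replicate 2 and 6 to 11 with 1 library left out. It was 6 with library totals as the only scaling, where Slc4a9 and Atp6v1g3 lost their calls, and 1 in the fit of only the 6 libraries.

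The loop of Henle and distal tubule had 8 of 18 genes higher and the principal cells of the collecting duct 4 of 11, with none lower. With 1 library left out these counts ran from 5 to 11 and from 1 to 8. Slc12a1, the furosemide-sensitive cotransporter of the thick ascending limb (chr2:124994425-125071922), stood at 368, 352 and 282 CPM at day 14 and 612, 1037 and 684 at day 21, against 1237 ± 114 in controls (1.22 ± 0.2, adjusted p = 0.00455). The calcium-binding protein genes of the distal tubule Calb1 and S100g went from 174, 169 and 196 to 336, 601 and 314 and from 85.1, 84.1 and 108 to 271, 538 and 313 CPM (1.21 ± 0.22 and 2.02 ± 0.23, adjusted p = 0.00727 and 0.000872). Replicate 2 was highest for these 3 genes and close to control, and replicates 1 and 3 lay between it and day 14. Without replicate 2 their log2 fold changes were 0.96 ± 0.12, 0.85 ± 0.1 and 1.66 ± 0.11, all past the threshold. Aqp3, a basolateral water channel of principal cells, went from 38.1, 43.4 and 52.7 to 81.7, 86.5 and 108 CPM, against 85.7 ± 15 in controls, with no such gap between the libraries (1.04 ± 0.16, adjusted p = 0.00313). As a list, principal cell genes were not low at day 14: their summed level was 486 to 607 CPM in controls, 492 to 625 at day 14 and 821, 589 and 1056 at day 21. At day 14, 3 of the 11 were below control and 1 above, and at day 21 none was below and 5 were above. Umod, the most abundant transcript of the thick limb, was not called (1855, 1888 and 1568 CPM, then 2105, 2611 and 2031, adjusted p = 0.15). Egf, a growth factor of the distal tubule, was called (3.19 ± 0.86, adjusted p = 0.0342), but its values of 48.1, 611 and 37.7 CPM after 25.7, 22.9 and 27.5 put most of the change in replicate 2; without it the log2 fold change was 0.76 ± 0.13 (adjusted p = 0.00201), and with any 1 day-14 library left out it was not called. Library totals as the only scaling left 5 of the 18 and 1 of the 11 higher, and the fit of only the 6 libraries 0 and 1; in that fit, edgeR put Slc12a1 at an adjusted p of 0.0774.

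In the proximal tubule the rise lay mainly in 1 library. Of 24 genes of its earlier segments 3 were higher and none lower, and of 16 genes of the third segment 8 were higher. Over all genes tested 7.03% were higher and 7.57% lower. The third segment had 1 member higher with any 1 day-14 library left out and with the replicate block, and 0 in the fit of only the 6 libraries. DESeq2 on all 12 libraries gave 6 higher. Without day-21 replicate 3 both lists had 14 higher, and without replicate 1 they had 12 and 13. Slc7a13, an amino acid transporter of the third segment, stood at 1.47, 2.01 and 2.19 CPM at day 14 and at 2.18, 326 and 1.74 at day 21, against 779.7 ± 60.7 in controls. Replicate 2 alone was high, and without it the log2 fold change went from 5.87 ± 1.66 to 0.06 ± 0.18 (adjusted p = 0.0393 and 0.836). It was not called with any 1 day-14 library left out, too. The organic anion transporter Slc22a7 had the same pattern (0.17, 43 and 0.188 CPM at day 21). In the earlier segments Slc34a1, the main phosphate transporter, stood at 597, 2868 and 415 CPM after 379, 383 and 447, Lrp2, the endocytic receptor megalin, at 298, 1443 and 272 after 378, 344 and 387, and Kl, which encodes klotho, at 143, 678 and 128 after 127, 128 and 160.4. None of the 3 was called with all libraries (adjusted p = 0.0677, 0.264 and 0.131), and without replicate 2 Lrp2 was lower than at day 14 (-0.38 ± 0.09, adjusted p = 0.0136). Over the lists, replicate 2 had returned by a median of 84.6% and 81.9% of the way to control in the earlier and the third segments, replicate 1 by 12.8% and 2.82% and replicate 3 by -5.74% and 2.07%. Without replicate 2 the earlier segments had 5 members higher and 7 lower, and the third segment 4 higher and 1 lower. In that fit 12.5% of all genes were higher and 11.4% lower.

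A few transport and metabolic genes that had fallen by day 14 rose in all 3 libraries. Slc6a19, the neutral amino acid transporter of the brush border, went from 37.2, 38.5 and 39.3 to 134, 226 and 92.7 CPM (1.98 ± 0.28, adjusted p = 0.00231), and the sodium-proton exchanger Slc9a3 from 26.4, 24.7 and 23.3 to 56.3, 85.1 and 35.6 (1.25 ± 0.24, adjusted p = 0.00843). Cyp2a5, a cytochrome P450 that hydroxylates coumarin, stood at 16.4, 18 and 24.4 CPM and then 64.1, 58.3 and 75.4, with replicate 2 the lowest of the 3 (1.75 ± 0.18, adjusted p = 0.000731). Cyp2a5 belongs to a family of near-identical genes, so its count is uncertain. Hpd, an enzyme of tyrosine breakdown, was almost absent at day 14, at 0.386, 0.368 and 0.292 CPM, and stood at 2.06, 8.31 and 3.41 at day 21, still below its control mean of 39.5 ± 2.28. The glutamine transporter Slc38a3 rose from 6.27, 7.54 and 5.97 to 29.9, 14.7 and 18.8 CPM, and in replicate 1 it had reached its control mean of 28.4 ± 5.23. Without replicate 2 the log2 fold changes of these 5 genes ran from 0.89 for Slc9a3 to 2.95 for Hpd, all past the threshold.

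Energy metabolism rose in part. Of 22 nuclear genes of oxidative phosphorylation 12 were higher and of 25 genes of fatty acid oxidation 9 were higher, with none lower. The fatty acid oxidation count ran from 2 to 19 with 1 library left out and was 1 in the fit of only the 6 libraries. Ppargc1a, the coactivator that drives mitochondrial genes, went from 31, 28.3 and 30.3 to 49.8, 67.7 and 40.0 CPM, against 79.6 ± 3.54 in controls (0.81 ± 0.15, adjusted p = 0.00751). Cox6c, a subunit of cytochrome oxidase, stood at 207, 203 and 215 and then 289.6, 490.2 and 328 CPM, so replicates 1 and 3 lay between day 14 and the control mean of 449.7 ± 33.4. Its call was lost without day-14 replicate 1 or 2 (highest adjusted p = 0.058). The count of oxidative phosphorylation genes higher was 17 without day-21 replicate 2, but 1 without day-14 replicate 2 and 0 in the fit of only the 6 libraries, where the list's median log2 fold change was 0.75 beside 0.73 in the fit of 12. Cyp4a14, a fatty acid hydroxylase, was among the 12 genes that had risen by day 14 and rose further. Cyp4a14 went from 155, 164 and 119 to 521, 346 and 358 CPM (1.48 ± 0.31, adjusted p = 0.0125, and 0.0534 without day-14 replicate 3), and its close relatives make the count uncertain. Nqo1, a quinone reductase induced by the oxidant sensor NRF2, rose from 26.2, 27.4 and 25.2 to 79.5, 67.9 and 48.8 CPM, around its control mean of 61.5 ± 3.03 (1.32 ± 0.18, adjusted p = 0.00202).

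Tubule injury genes were split between the libraries. Of 29 tested, 3 were lower in the fit of all libraries and none higher, against 7.57% of all genes lower and 7.03% higher. Without day-21 replicate 2 there were 9 lower and 7 higher, against 11.4% and 12.5% of all genes. Lcn2, the secreted injury marker also known as NGAL, stood at 478, 492 and 506 CPM at day 14 and 578, 93.8 and 556 at day 21, against 2.59 ± 0.581 in controls. Replicates 1 and 3 lay above every day-14 library and replicate 2 well below them, and the gene was not called with all libraries (-0.27 ± 0.48, adjusted p = 0.734) or without replicate 2 (0.2 ± 0.15, adjusted p = 0.339). In replicates 1 and 3, then, Havcr1 had fallen to 160 and 134 CPM while Lcn2 stood at 578 and 556. Clu, a chaperone of injured epithelium, stood at 1486, 1469.6 and 1711 and then 1897, 745 and 2172 CPM, the keratin gene Krt18 at 74.2, 77.5 and 78.3 and then 92.5, 32.5 and 135, and the cell cycle inhibitor gene Cdkn1a at 33.4, 36.6 and 32.2 and then 33.8, 6.87 and 46.3. Clu and Krt18 were called higher without replicate 2 (0.39 ± 0.09 and 0.57 ± 0.17, adjusted p = 0.0128 and 0.0281) and not with it. Itgav, an integrin chain that activates TGF-beta, was called lower in all fits with 1 library left out (408, 393 and 376 CPM, then 219.6, 174 and 219). Of 25 mitosis genes 2 were lower, a share near the background of 7.57%, and 0 to 8 with 1 library left out. Mki67, a marker of dividing cells, stood at 23.6, 21.9 and 22.5 and then 16, 7.03 and 10.9 CPM (adjusted p = 0.0727).

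**Figure D4:**
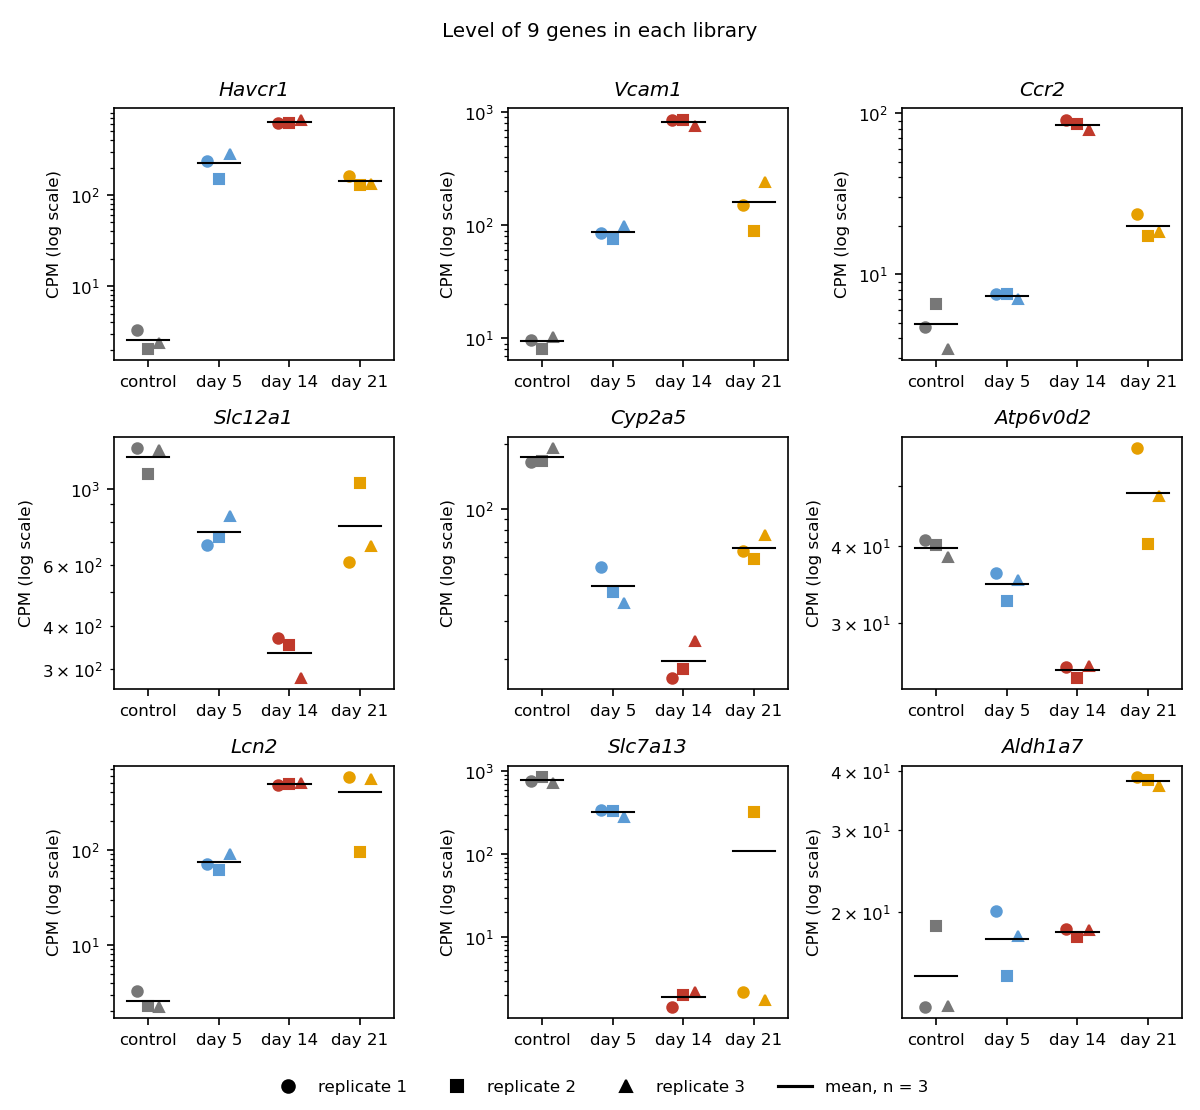
CPM on a log axis for 9 genes in each library by group, with replicates as symbols and the group mean as a line. Havcr1, Vcam1 and Ccr2 fall in all 3 day-21 libraries, Slc12a1, Cyp2a5 and Atp6v0d2 rise in all 3, Lcn2 and Slc7a13 stand apart from day 14 mainly in replicate 2, and Aldh1a7 stands at 38.8, 38.3 and 37.1 CPM at day 21.

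Genes that persisted were read from the interval rule. Among rises, Socs3, the feedback inhibitor of STAT3, stood at 28.2, 27.4 and 33.5 CPM at day 14 and 36, 13.4 and 28.5 at day 21 against 1.31 ± 0.282 in controls, and Fgb, the fibrinogen beta chain, at 22.4, 20.9 and 17.8 and 27.1, 13.4 and 23 against 1.3 ± 0.314. Their 95% intervals for day 21 against day 14 ran from -0.8 to 0.42 and from -0.48 to 0.59. Among falls, Ren1, which encodes renin, stood at 14.6, 15 and 10.2 CPM and then 17, 23.8 and 12.4 against 51.8 ± 11.2 in controls, and Dio1, the enzyme that activates thyroid hormone in the kidney, at 6.17, 6.43 and 7.26 and then 6.68, 10.3 and 7.85 against 27.2 ± 13.5. Some mouse strains carry a second, near-identical renin gene, and the strain is not given, so the renin count is uncertain. The podocyte gene Podxl, podocalyxin, and the podocyte factor Wt1 also met the rule for persistent falls, at 60.9, 126 and 51.8 and 2.13, 4.65 and 2.02 CPM after 63.2, 62.1 and 60.0 and 2.7, 3.19 and 3.31, although replicate 2 was above the others in both. Without it Wt1 was lower at day 21 than at day 14 (-0.56 ± 0.14, adjusted p = 0.0139).

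Of 27 podocyte genes 5 were lower at day 21 than at day 14 and none higher, against 7.57% of all genes lower and 7.03% higher. Without replicate 2 there were 9 lower and none higher, against 11.4% of all genes lower and 12.5% higher in that fit. But without day-21 replicate 1 there were 7 lower and 3 higher, and without replicate 3 there were 4 lower and 3 higher. DESeq2 gave 7 lower and 2 higher. Without day-14 replicate 2 there were 2 lower. Nphs1 was not called (adjusted p = 0.0672). Those that fell included Nes, Tcf21, Synpo and Ptgds, of which Ptgds lost its call with any 1 day-14 library left out. Nes, an intermediate filament gene that other kidney cells also use after injury, went from 87.1, 80.8 and 80.6 to 41.8, 26.4 and 41.2 CPM (-1.18 ± 0.17, adjusted p = 0.00225), and Tcf21, a factor of podocytes and stromal cells, from 23.1, 23.6 and 28.3 to 10.8, 12.9 and 16.8 (-0.89 ± 0.17, adjusted p = 0.00923). Both had been above control at day 14. Synpo, the actin-associated protein synaptopodin, was at 38.7 ± 2.18 CPM in controls, 47.3, 47.8 and 43.4 at day 14 and 33.8, 33.9 and 25.8 at day 21 (-0.57 ± 0.12, adjusted p = 0.0118, and 0.0549 without day-14 replicate 2), which places it among the late falls. Synpo, unlike Nphs1, was not low at day 14. Cd44, which marks activated parietal cells of the glomerulus and many leukocytes, went from 101, 102 and 103 to 27.5, 12.2 and 31.4 CPM (-2.1 ± 0.29, adjusted p = 0.00209).

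Genes that rose only late were few, and among them was Aldh1a7, an aldehyde dehydrogenase (chr19:20670317-20704926). It stood at 14.6 ± 3.54 CPM in controls, 18.4, 17.7 and 18.3 at day 14 and 38.8, 38.3 and 37.1 at day 21 (1.07 ± 0.15, adjusted p = 0.00256). Its relative Aldh1a1, which makes retinoic acid, also stood higher, at 51.5, 23.9 and 47.9 after 23.6, 23.9 and 21.1 CPM, but was already up at day 14 and lost its call when any 1 library other than day-21 replicate 2 was left out (highest adjusted p = 0.117), and reads shared between these similar genes are a limit. Gsta4, a glutathione transferase that clears lipid peroxidation products, went from 29.7, 28.8 and 20.6 to 83.7, 47 and 78 CPM (1.4 ± 0.21, adjusted p = 0.00337). Cldn19, a tight junction protein of the thick ascending limb, went from 25.1, 25.9 and 25.2 to 53.4, 34.3 and 49.2 CPM, above its control mean of 22.2 ± 1.73 (0.84 ± 0.14, adjusted p = 0.0054), though not with library totals as the only scaling. Aqp2, the vasopressin-regulated water channel, stood at 119, 129.9 and 141 and then 228, 171 and 330.3 CPM against 101 ± 24.1 in controls (0.9 ± 0.22, adjusted p = 0.0248), and was not called with any 1 day-14 library left out (highest adjusted p = 0.0941). Apela, a peptide hormone of the apelin receptor, had fallen by day 14 and overshot its control mean of 24.6 ± 2.17, from 16.7, 17.5 and 15.9 to 26.3, 34.4 and 39.8 CPM (1.01 ± 0.13, adjusted p = 0.00171).

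Of 12 B and plasma cell genes 2 were lower and none higher, against 7.57% of all genes lower and 7.03% higher. Without day-21 replicate 2 there were 2 lower and 5 higher, against 11.4% and 12.5% of all genes. The 2 that fell were Ighm, the IgM heavy chain, and Derl3, a membrane protein of the secretory pathway. Derl3 went from 1.25, 1.1 and 1.56 to 0.0969, 0.353 and 0.47 CPM (-2.08 ± 0.44, adjusted p = 0.0132). Igha, the IgA heavy chain, stood at 5.46, 6.28 and 7.57 CPM at day 14 and 33.4, 17.8 and 16.2 at day 21, and Jchain, which joins secreted antibodies, at 2.57, 2.01 and 2.12 and then 9.98, 4.94 and 4.3. All 3 day-21 libraries lay above day 14 for both, with adjusted p = 0.0817 and 0.0627. Without replicate 2 both passed (adjusted p = 0.0379 and 0.0281). Ighm went from 14.4, 15.2 and 11.1 to 7.05, 5.81 and 5.12 CPM (-1.18 ± 0.23, adjusted p = 0.0102), a call lost without day-14 replicate 2. Mmp7, a protease of injured tubules, stood at 4.75, 4.76 and 3.92 and then 16.7, 4.37 and 13.3 CPM, called higher without replicate 2 (1.74 ± 0.22, adjusted p = 0.000437) and not with it (adjusted p = 0.052).

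Late falls were as few. Lama1, a laminin chain of the tubule basement membrane (chr17:68004254-68129642), stood at 18.6 ± 1.19 CPM in controls, 19.5, 17.9 and 16.6 at day 14 and 9.57, 11.4 and 9.75 at day 21 (-0.82 ± 0.11, adjusted p = 0.00229). Slc6a15, a transporter of branched-chain amino acids, had risen to 33.9, 30.0 and 36.1 CPM at day 14 and stood at 17, 15.8 and 16.9 at day 21, below its control mean of 22.1 ± 2.48 (-1.01 ± 0.1, adjusted p = 0.000731). For both genes the 3 day-21 libraries lay close together, replicate 2 included. The complement factor B gene Cfb stood at 417 ± 65.8 CPM in controls, 458, 458 and 445 at day 14 and 229, 372 and 246 at day 21 (-0.69 ± 0.18, adjusted p = 0.0317), and its call was kept only without day-21 replicate 2 when libraries were left out (highest adjusted p = 0.102).

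Among the 10 largest called falls without overlap were Ear2, Cd83, Cd209a, Vcam1 and Ccl2, and also Stra6, a retinol receptor, at 39, 42.5 and 54.1 CPM at day 14 and 10.3, 9.15 and 9.38 at day 21, and Aoc1, the diamine oxidase that breaks down histamine, at 227, 227 and 192 and 48.5, 47.6 and 49.1 (-2.23 ± 0.14 and -2.15 ± 0.21, adjusted p = 0.00012 and 0.000587). In these 2 genes the 3 day-21 libraries were nearly equal, although replicate 2 stood far from the others over the whole transcriptome. The 2 largest called rises without overlap followed replicate 2: Dnase1, a secreted nuclease of the kidney, stood at 7.1, 206 and 6.09 CPM after 4.01, 3.73 and 4.63, and Inmt, a methyltransferase, at 18.6, 479.9 and 17.1 after 12, 12.2 and 14.3. Both were called with all libraries (adjusted p = 0.0363 and 0.0398), with most of the change in replicate 2. Without it the log2 fold changes were 0.68 ± 0.23 and 0.47 ± 0.12 (adjusted p = 0.0524 and 0.0175), and with any 1 day-14 library left out neither was called.

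**Figure D5:**
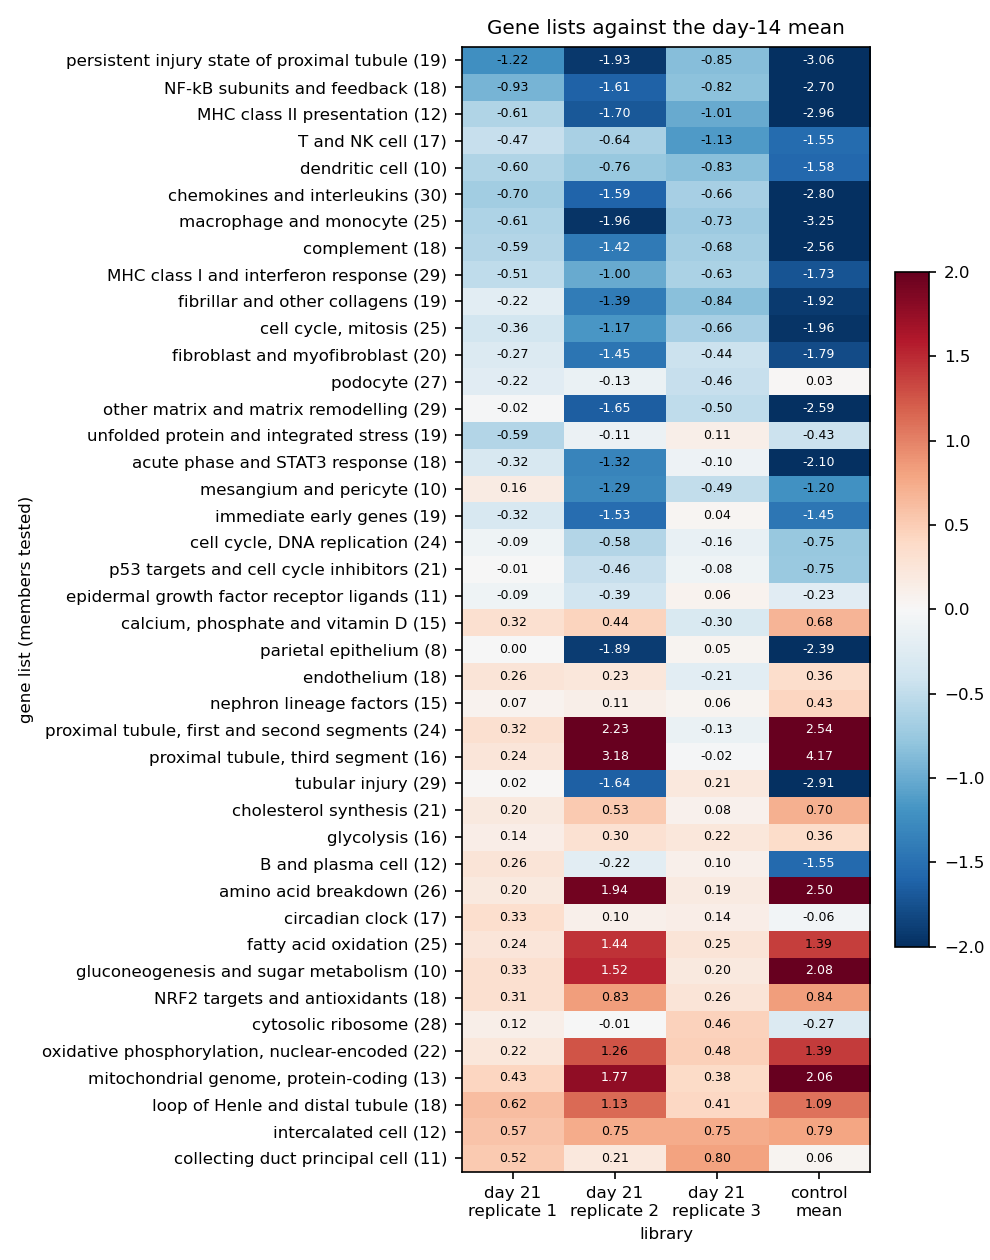
Median log2 difference from the day-14 mean over the tested members of each gene list, in each day-21 library and in the control mean. The inflammatory lists at the top are below 0 in all 3 libraries, the distal lists at the bottom above 0 in all 3, and the proximal tubule lists stand at 2.23 and 3.18 in replicate 2 and between -0.13 and 0.32 in the others.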

How the data were processed

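RNA from whole kidney was sequenced in 12 libraries of 4 groups of 3 mice. The authors deposited raw counts per gene, trimmed with fastp 0.20.0 and counted with featureCounts on GRCm39, per the submitters' processing notes. The sources used here give no aligner, annotation, strand setting or rule for reads that match several genes. Replicates are separate mice per the series' design text, and all carry 1 batch label. Gene names and GRCm39 coordinates come from the table. Of the 56722 genes in the table, 2803 have no symbol and are not named.

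Genes were kept by filterByExpr and fitted with edgeR 4.0.16 (R 4.3.3, limma 3.58.1) by quasi-likelihood with TMM scaling and 1 coefficient per group over all 12 libraries. Calls are at a Benjamini-Hochberg adjusted p under 0.05 over all genes, and an SE is the log2 fold change over the root of F. On simulated counts for 19978 genes, 100% of 200 genes changed 2- or 4-fold were recovered and 13 unchanged genes were called. The simulation gave every gene the same small spread and set no library apart. Its rates therefore do not carry over to the real day-21 libraries. Alternatives were DESeq2 1.42.0, limma-voom with and without sample weights, other scalings and filters, a replicate block, only the 6 libraries, and each library left out.

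The members and the 51 gene lists (847 of 849 symbols found) were chosen with earlier results of these data known, so list counts are descriptions. Named genes are the 10 largest called rises and falls without overlap, the 3 members of each list with the smallest adjusted p, the 6 largest of each class, and a fixed set of kidney genes. Adipoq, Aldh1a1, Arg1, Atp6v1g3, Ccl12, Ccl20, Ccl5, Cfb, Chil3, Clu, Cxcl10, Cxcl2, Foxi1, Hdac9, Krt18, Lyz2, Mmp7, Nfkb2, Nfkbia, Nfkbie, Pdgfb, Pdgfd, Ptgds, Rel, Rhbg, Sema5a and Slc4a9 fall outside that rule and were chosen after their values were seen. Some genes that the rule names are not reported here.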

Additional observations from a re-analysis of the deposited data

How the results depend on the processing

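With 3 mice a group and 1 day-21 library apart, counts of calls moved widely, while few of the named genes that were called turned sign. With 1 of the 6 libraries left out, genes higher ran from 289 to 2619 and genes lower from 563 to 2366, receding rises from 545 to 2049 and recovering falls from 266 to 2392, persistent rises from 1117 to 3774 and persistent falls from 1050 to 4209, late rises from 21 to 607 and late falls from 17 to 348. For the median return only day-14 libraries were left out. It then ran from 15.9% to 16.7% in day-21 replicate 1, from 71.9% to 73.1% in replicate 2 and from 15.4% to 16.4% in replicate 3. With all 3 day-14 libraries it was 15.5%, 72.1% and 15.2%. Library totals as the only scaling gave 512 higher, 2724 lower, 2651 receding, 437 recovering, 6238 and 652 persistent rises and falls, 38 late rises and 40 late falls. The same scaling without day-21 replicate 2, chosen after seeing the data, gave 1436 higher, 3853 lower, 3433 receding, 486 recovering, 9404 persistent rises, 346 late rises and 207 late falls. DESeq2 gave 2175 higher, 2098 lower, 1905 recovering falls, 137 late rises and 143 late falls. Sample quality weights gave 3258 and 3573 persistent rises and falls, 259 late rises and 114 late falls, and no filter on low counts gave 35 late falls. Only the 6 libraries gave 56 higher and 207 lower, and without controls no classes. Deviations of same-numbered day-14 and day-21 libraries from their group means had correlations of -0.027, -0.028 and -0.068. Deviations from a mean of 3 libraries cannot show whether the numbers mark a shared litter or day, which the labels do not say. With the replicate block there were 965 higher, 1246 lower and 45 late falls. Signs were compared for named genes only, and a turn was counted only where the main or the other fit called the gene. Lcn2, whose sign differed without day-21 replicate 2 but which neither fit called, is therefore not listed. Signs turned for Slc7a13 (-0.050), Akr1c14 (-0.17), St8sia1 (-0.84), Lrp2 (-0.49) and Slc22a28 (-0.63) with library totals without day-21 replicate 2. They also turned with TMM scaling without that library for Akr1c14 (-0.059), St8sia1 (-0.72) and Lrp2 (-0.38), whose ranges over libraries left out reached 5.34, 0.47 and 1.24, in the day-14 and day-21 libraries alone without it for Akr1c14 (-0.057) and Lrp2 (-0.37), and for St8sia1 (-0.70) with sample quality weights. The cause was not tested.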
